A study of Oryctolagus cuniculus with 17 samples.

Results

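The step from day 3 to day 5 of hyperoxia was examined in the lungs of preterm rabbit pups, by setting the 2 libraries labelled HT5 against the 3 labelled HT3. The libraries were taken by these labels, and they made up 5 of the 17 samples of the series. All pups were New Zealand White rabbits born by caesarean section on gestation day 28 and fed a milk replacer. HT3 and HT5 pups were kept in 95% oxygen until postnatal day 3 or day 5. NT3 and NT5, with 3 libraries each, were kept in room air (21% oxygen) for the same days, and HT7 (3 libraries) stayed in 95% oxygen until day 7. Poly(A) RNA of a homogenate of the right lung was sequenced from stranded libraries, and reads were counted per locus, a stretch of the genome that can hold more than 1 annotated gene. The labels do not say which pups were littermates or whether libraries of a group came from separate litters, so p-values measure only the spread between these samples. The lung was sampled whole, and in such a homogenate fewer cells of a type and less RNA per cell cannot be told apart.

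Rabbit pups born at this stage have saccular lungs, in which a dense capillary network and elastic fibres must still form so that the sacs can be divided into alveoli. Breathing high oxygen raises reactive oxygen species, which damage DNA, proteins and membranes, and lung endothelial cells are known to be among the most sensitive to it. Damaged cells can answer through the transcription factor p53, which halts the cell cycle, through NRF2, which drives antioxidant genes, and through ATF4, which adjusts amino acid supply under stress.

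Counts per library ranged from 15491976 to 17138343 in HT3 and were 13123731 and 16026709 in HT5, with 13313 loci counted and 12628 loci tested. Levels are given as CPM, counts relative to the total of the library after scaling by TMM factors, and log2FC is the fitted log2 ratio of HT5 to HT3 from edgeR's quasi-likelihood model of all 17 samples, with its standard error (SE) and a p-value adjusted by Benjamini-Hochberg over all tested loci. A locus was called at an adjusted p under 0.05, and a differentially expressed gene (DEG) had an adjusted p under 0.01 and a log2FC beyond 2 in size. The lung origin was plain in every library: SFTPC, the surfactant protein made by alveolar type 2 cells, stood at 11049, 10588 and 9301 CPM in HT3 and 13459.8 and 4424 CPM in HT5. The HT5 libraries were not alike (HT5_2 stands for replicate 2 of HT5, and so on). HT5_2 had the lower sum over the 11 tested markers of alveolar type 2 cells (14690 CPM, against 37930 CPM in HT5_1 and 28760 to 32350 CPM in HT3), and the sum over 9 markers of skeletal muscle was 538.8 CPM in HT5_1 and 110.2 CPM in HT5_2. Muscle markers also varied within HT3, from 130 to 588.6 CPM, and MYH1 was at 0 in HT3_1 and HT5_2. What these differences contribute to the results was not tested.

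Between day 3 and day 5 of hyperoxia, 1311 loci rose (10.4% of those tested) and 1482 fell (11.7%), while the median log2FC over all tested loci was 0.00639. Of these, 110 were DEGs (0.871% of tested loci), 45 upregulated (0.356%) and 65 downregulated (0.515%). The upregulated DEGs had a median log2FC of 2.72 and the downregulated a median of -2.43, or 2.67 and -2.36 with the 4 and 5 loci whose lower group held at most 3 counts per library set to their bounds. In all 110, the HT5 libraries lay on one side of the HT3 libraries, as did those of 23.2% (above) and 24.9% (below) of all tested loci. The count of DEGs leaned on single libraries: it was 73, 49 and 127 without HT3_1, HT3_2 and HT3_3, 216 without HT5_1 and 8 without HT5_2, where the lone HT5 library is assumed to vary like the other groups. Without HT5_2, all 110 loci kept their sign and 48 were still called, against 1.05% of loci called up and 1.61% called down in that fit. In a fit of the 5 HT3 and HT5 libraries alone, no locus was a DEG. There, 444 loci were called (1.28% of those tested up and 2.38% down), and 72 of the 110 were among them. The 110 were chosen from these same libraries, so nothing is read from how many lay apart, kept their sign or stayed called. With fewer loci called in both of these fits, a lower count in a list below is not read as particular to that list.

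**Figure D1:**
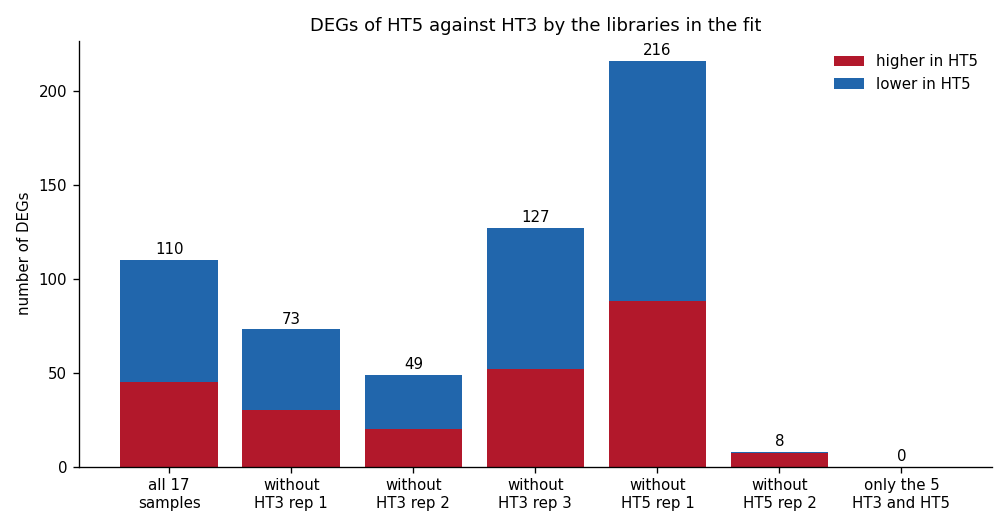
Number of DEGs for HT5 against HT3 in the full model (110), after leaving out each HT3 or HT5 library in turn, and in a fit of the 5 libraries alone. Bars start at 0, and the count lies between 8 and 216 when 1 library is left out and is 0 in the 5 libraries alone.

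HT5_2 stood further from HT3 than HT5_1 in most of these loci. Measured from the HT3 mean on the log2 scale, the upregulated DEGs had a median of 2.0 in HT5_1 and 2.95 in HT5_2, and 39 of 45 were higher in HT5_2. The downregulated DEGs had medians of -1.97 and -2.3, and 47 of 65 were lower in HT5_2. GPX1, a glutathione peroxidase that the table names at 2 loci and that was singled out after its values were seen, was the opposite case. Its locus on chromosome X measured 4.66, 4.67 and 5.49 CPM in HT3, 61.6 CPM in HT5_1 and 5.76 CPM in HT5_2, so that it passed as a DEG through HT5_1, while its locus on chromosome 9 did not pass (log2FC 0.19). Among the 6 DEGs that met the criterion with any 1 library left out were CDKN1A, EDA2R, CD8B and CD300LG, described below, and CHRD, a BMP antagonist (log2FC 2.65) named after its values were seen.

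**Figure D2:**
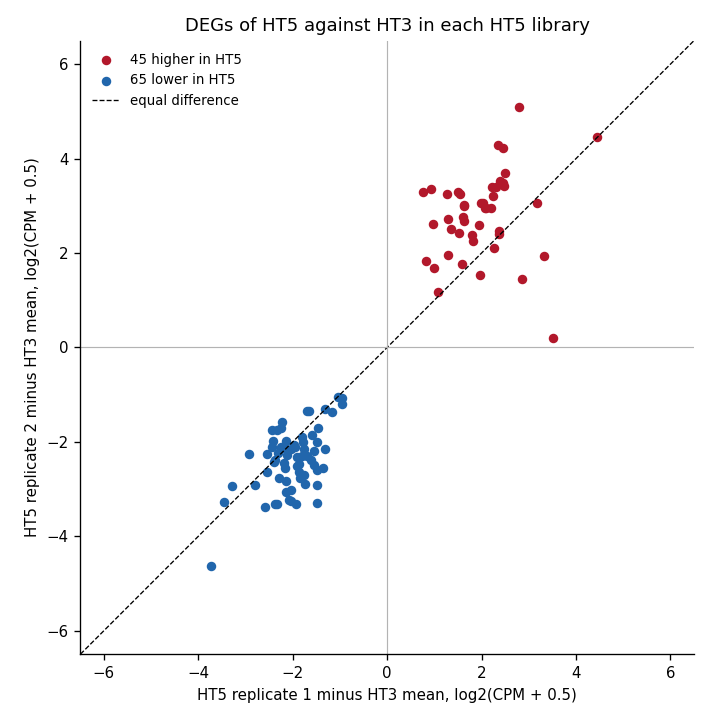
Difference of each of the 110 DEGs from the HT3 mean on the log2 scale in HT5_1 (horizontal axis) and HT5_2 (vertical axis), with the line of equal values. Of the 45 upregulated loci 39 lie above the line, and of the 65 downregulated loci 47 lie below it.

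The 12 strongest rises were taken from DEGs whose mean level over all samples reached 1 log2 CPM and whose HT5 libraries both lay beyond every HT3 library. Their separation was thus set by this choice. CNTN2, a neuronal adhesion molecule, had the steepest of them, with 0.722, 0.737 and 0.258 CPM in HT3 and 22.4 and 22.5 CPM in HT5 (log2FC 5.27 ± 0.94 SE, adjusted p = 0.00236). Both HT5 libraries stood at nearly the same level, far above the 3 HT3 libraries. EGR3, an immediate early transcription factor, measured 0.263, 0.246 and 0.968 CPM in HT3 and 4.28 and 18 CPM in HT5 (log2FC 4.49), and CD8B, a chain of the T cell co-receptor CD8, measured 0.722, 0.246 and 0.516 CPM in HT3 and 8.33 and 7.66 CPM in HT5 (log2FC 4.0). The HT5 libraries lay above HT3 for both genes, although CD8A, the partner chain, did not pass (log2FC 0.80, adjusted p = 0.329), and neither did the other tested lymphocyte markers. IL1RL2, the receptor for interleukin 36, was close to absent in HT3 and measured 0.131, 0.184 and 0.258 CPM in HT3 and 3.08 and 3.15 CPM in HT5 (log2FC 3.97). The remaining rises were SLC7A11, LIF, IGSF9B, CDKN1A, FOSL1, RNASE8, COCH and EDA2R, with log2FC between 3.04 and 4.39. Among DEGs outside this rule, singled out after their values were seen, the histone genes H2AC19, H3C15 and H1-4 rose, and RPL34 and RPL24, which carry names of ribosomal proteins, fell, and near-identical copies of both kinds of gene leave their values uncertain. Without the library named, the call was lost for these of the 12: EGR3, LIF and COCH without HT5_2 (adjusted p from 0.0521 to 0.105).

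The 12 strongest falls were taken in the same way. IHH, a hedgehog ligand, measured 4.2, 9.39 and 3.16 CPM in HT3 and 0.30 and 0.237 CPM in HT5 (log2FC -4.35 ± 1.04 SE, adjusted p = 0.00978), and CD300LG, a receptor of capillary endothelium, measured 98.1, 155 and 90.6 CPM in HT3 and 7.96 and 4.04 CPM in HT5 (log2FC -4.27 ± 0.46 SE, adjusted p = 0.000165). HIF3A, a member of the hypoxia-inducible factor family that can restrain the others, fell from 94.5, 253 and 60.8 CPM to 9.91 and 11.3 CPM (log2FC -3.68). The lowest HT3 library stood above both HT5 libraries for each of the 3, as the choice required. ZBTB16, GLIS1, FZD9, SLC6A4, COLEC11, IGSF1, FBXW12, SLC38A11 and ADGRV1 completed the set, with log2FC between -3.36 and -2.85. Calls were lost in this way: IHH, GLIS1, FZD9, IGSF1, FBXW12 and ADGRV1 without HT5_2 (adjusted p from 0.0507 to 0.13).

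**Figure D3:**
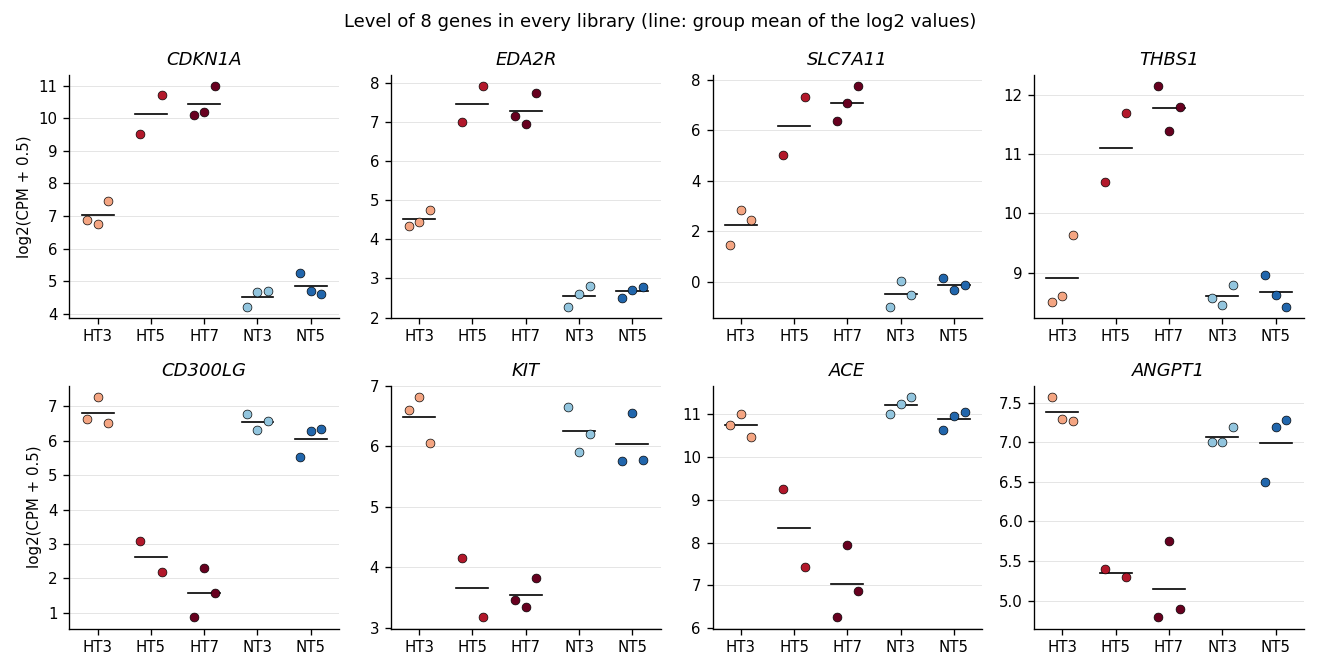
Level of 8 genes as log2(CPM + 0.5) in every library of HT3, HT5, HT7, NT3 and NT5, with 1 point per library and a line at the group mean. The HT5 points lie above HT3 for CDKN1A, EDA2R, SLC7A11 and THBS1 and below HT3 for CD300LG, KIT, ACE and ANGPT1, and the vertical axes differ between panels and do not start at 0.

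Most of the p53 targets tested rose. Of 23 tested targets, 17 rose and none fell, with a median log2FC of 1.31, and in room air the median over the same days was 0.07. CDKN1A, which encodes the cell cycle inhibitor p21 (chromosome 12, 26615148 to 26621177, OryCun2.0), stood at 117, 108 and 175 CPM in HT3 and 739 and 1689 CPM in HT5 (log2FC 3.19 ± 0.35 SE, adjusted p = 0.000215). HT5_2 was the higher of the HT5 libraries, and both lay above every HT3 library. EDA2R, a death receptor of the TNF receptor family (chromosome X, 45563827 to 45581103), had 19.6, 21.2 and 26.5 CPM in HT3 and 127 and 243 CPM in HT5 (log2FC 3.04 ± 0.26 SE, adjusted p = 9.46e-05). PHLDA3, an inhibitor of the kinase AKT, rose from 19.9, 13.7 and 21.8 CPM to 75.2 and 156 CPM (log2FC 2.64). TIGAR, which lowers glycolytic flux, rose from 3.81, 2.7 and 4.71 CPM to 17.3 and 31.6 CPM (log2FC 2.71). None of these groups overlapped. BTG2, SESN2, AEN, ZMAT3, GADD45A, RRM2B, PLK3, DDB2, BAX, XPC, FAS, TRIAP1 and BBC3, with roles in growth arrest, DNA repair or cell death, rose as well, with log2FC from 0.79 (BBC3) to 2.56 (BTG2). TIGAR, BTG2, ZMAT3, AEN, GADD45A, RRM2B, PLK3, XPC, FAS and TRIAP1 were added by name after their values were seen, and the AEN counts also include ISG20, which lies at the same locus. Among these targets, the call was lost for BTG2, GADD45A, RRM2B, PLK3, XPC, FAS, TRIAP1 and BBC3 without HT5_2 (adjusted p from 0.106 to 0.611), FAS without HT5_1 (adjusted p = 0.063), PLK3, FAS and BBC3 without HT3_1 (adjusted p from 0.0544 to 0.0789) and PLK3, FAS and BBC3 without HT3_2 (adjusted p from 0.0784 to 0.111).

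MDM2, the ubiquitin ligase that removes p53 and is itself a target, was named in the table at 2 loci and was therefore not counted in the list. One locus (chromosome 4, 47739150 to 47811715) had 225, 178 and 223 CPM in HT3 and 509.9 and 1379 CPM in HT5 (log2FC 2.18 ± 0.29 SE, adjusted p = 0.000549). Again both HT5 libraries were above HT3, and HT5_2 was the higher. The other, on chromosome 18, measured 0.591, 1.10 and 0.323 CPM in HT3 and 3.45 and 1.78 CPM in HT5 and did not pass (log2FC 1.93, adjusted p = 0.0667). Leaving out HT5_2 brought the number of p53 targets that rose from 17 to 9, the fewest for any library left out, and the 5 libraries alone gave 10. The rises of CDKN1A, EDA2R, PHLDA3, TIGAR and MDM2 were called without any 1 of the 5 libraries. Among 11 tested members of the BCL2 family, which decides over mitochondrial cell death, the death members BAX (log2FC 1.16) and BBC3 (0.79) rose and the survival member BCL2 (-0.80) and the death member BMF (-0.83) fell. The share called was 36.4%, against 22.1% of all tested loci. In that family, calls were lost for BCL2 and BMF without HT5_2 (adjusted p from 0.105 to 0.415), BCL2 without HT5_1 (adjusted p = 0.0741), BMF without HT3_1 (adjusted p = 0.0769), BMF without HT3_2 (adjusted p = 0.0735) and BMF without HT3_3 (adjusted p = 0.072).

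**Figure D4:**
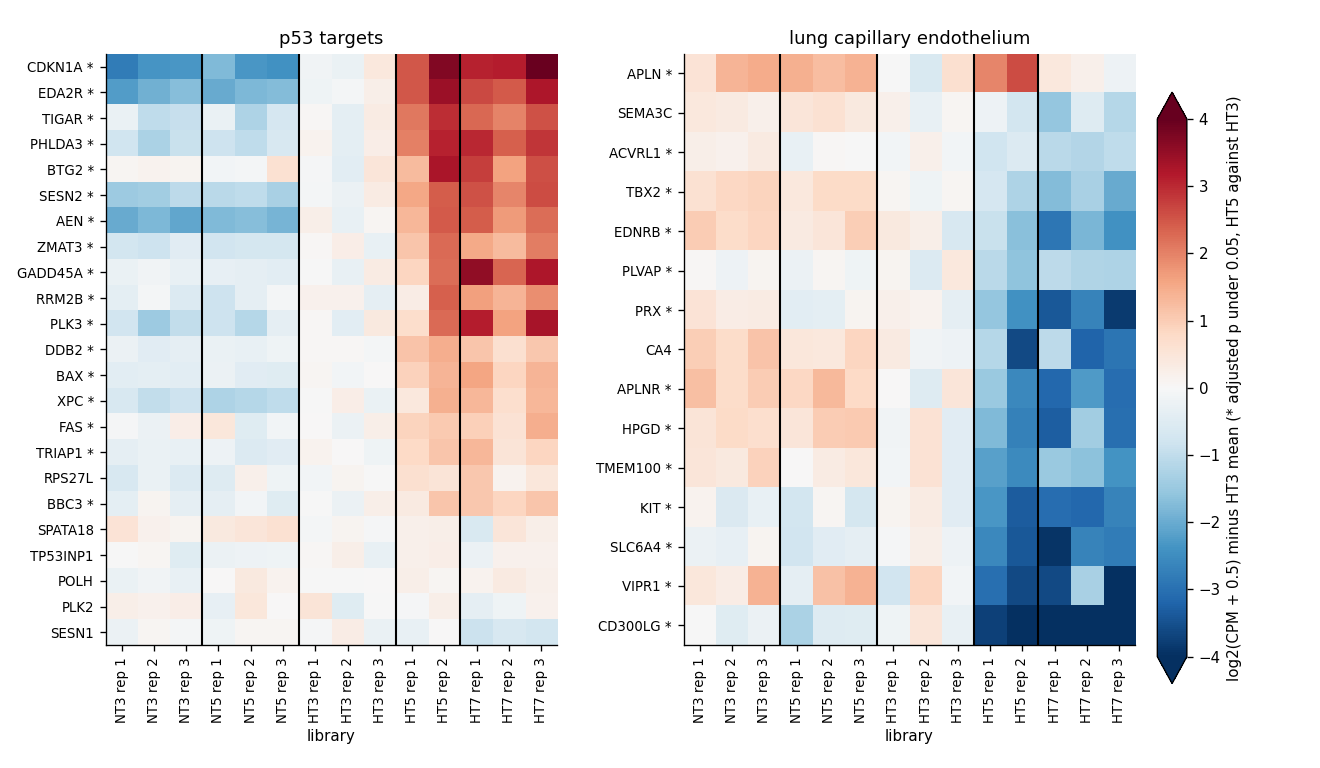
Colour gives log2(CPM + 0.5) of each library minus the HT3 mean, cut at 4 in either direction, for the 23 tested p53 targets and the 15 tested markers of lung capillary endothelium, with libraries in columns and an asterisk on called loci. CDKN1A and EDA2R are blue in NT3 and NT5 and red in HT5 and HT7, and CD300LG is near 0 in NT3 and HT3 and blue in HT5 and HT7.

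Genes of amino acid supply and translation rose in part. Among 36 tested genes of the ATF4 stress response, 19 rose and 4 fell, with a median log2FC of 0.62, against 0.03 in room air. Of the aminoacyl-tRNA synthetases, which load tRNAs, 9 of 11 rose, with log2FC from 0.41 (NARS1) to 1.37 (AARS1). AARS1 went from 223, 176 and 248 CPM to 345 and 770.4 CPM, with the HT5 libraries above HT3. Amino acid transport and synthesis followed with 5 of 14 up and 1 down, and ASNS, the asparagine synthetase, measured 13.4, 10.6 and 20.1 CPM in HT3 and 36.6 and 27.4 CPM in HT5 (log2FC 1.12 ± 0.27 SE, adjusted p = 0.0111). Of the regulators, 5 of 11 rose, led by SESN2 (log2FC 2.05), which is also a p53 target, and ATF3 (1.93), and 3 fell. DDIT3 (log2FC -1.29) and NUPR1 (-1.23), stress factors that ATF4 is known to induce, were among those that fell, and both were named after their values were seen. Without HT5_2, 3 of the 36 rose, 1 of them a synthetase, and none fell (median log2FC 0.41), and in the 5 libraries alone also 3 rose and none fell. Of the genes named, the call was lost for NARS1, AARS1, ASNS, ATF3, DDIT3 and NUPR1 without HT5_2 (adjusted p from 0.0504 to 0.303), NARS1, ASNS, DDIT3 and NUPR1 without HT5_1 (adjusted p from 0.067 to 0.172), NARS1, DDIT3 and NUPR1 without HT3_1 (adjusted p from 0.0638 to 0.0939), NARS1, DDIT3 and NUPR1 without HT3_2 (adjusted p from 0.0837 to 0.151) and DDIT3 without HT3_3 (adjusted p = 0.0513).

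Ribosome biogenesis, the making of ribosomal RNA and its assembly with proteins, had rises in most tested members. Of 50 tested genes, 34 rose and 1 fell, with a median log2FC of 0.74, against 0.02 in room air. RRP12, an export factor of pre-ribosomes, had 76.5, 75 and 88.4 CPM in HT3 and 165 and 263 CPM in HT5 (log2FC 1.42 ± 0.22 SE, adjusted p = 0.00137). POLR1A, the large subunit of RNA polymerase I, had 32.2, 34 and 37.9 CPM in HT3 and 64.9 and 78.6 CPM in HT5 (log2FC 1.05 ± 0.15 SE, adjusted p = 0.000739). The groups did not overlap for either gene. The locus that fell holds PES1 together with SEC14L3 (log2FC -0.73), and its reads cannot be assigned to one or the other. Most of these calls were lost in the 5 libraries alone, where 7 of the 50 rose, against 1.28% of all tested loci. Of the 50, 43 were higher in HT5_2 than in HT5_1. The median was 0.41 without HT5_2. RRP12 and POLR1A were called without any 1 library, and the PES1 locus lost the call without HT5_2, HT3_1 or HT3_2 (adjusted p = 0.319, 0.0973 and 0.0557).

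Of 10 tested heat shock chaperones 6 rose, with a median log2FC of 0.59, while 2 of 14 chaperones of the endoplasmic reticulum did (14.3%, against 10.4% of all tested loci). HSPA9, the mitochondrial HSP70, rose from 185, 158 and 205 CPM to 333 and 641 CPM (log2FC 1.42). Of 24 tested NRF2 targets, 8 rose and 1 fell (median log2FC 0.50, 0.11 in room air). SLC7A11, which imports cystine for glutathione (chromosome 15, 26382214 to 26463145), had 2.23, 6.57 and 4.91 CPM in HT3 and 32 and 159.5 CPM in HT5 (log2FC 4.39 ± 0.60 SE, adjusted p = 0.000624). HT5_2 was well above HT5_1, which in turn was above every HT3 library. TXNRD1, a thioredoxin reductase, measured 168, 176 and 158 CPM in HT3 and 307 and 551 CPM in HT5 (log2FC 1.36), and SRXN1 (1.69) and GCLM (1.08), named after their values were seen, also rose. The well-known targets HMOX1 and NQO1 did not pass, HMOX1 with log2FC 0.51 (adjusted p = 0.402) and NQO1 at 298, 302 and 110.2 CPM in HT3 and 210.4 and 879 CPM in HT5 (adjusted p = 0.0806), where the groups overlapped. The locus that fell is the one of PIR, which it shares with VEGFD. Single libraries mattered here too, since these lost the call: HSPA9, TXNRD1, SRXN1 and GCLM without HT5_2 (adjusted p from 0.0603 to 0.769), SRXN1 and GCLM without HT3_1 (adjusted p from 0.0659 to 0.0801) and SRXN1 without HT3_3 (adjusted p = 0.0547). Left without HT5_2, the NRF2 list had 1 rise (median log2FC 0.26) and the heat shock list 2.

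Immediate early genes and genes linked to epithelial injury rose in part. Of 15 tested genes of the AP-1 family and other immediate early genes, 6 rose and none fell (median log2FC 1.16, 0.22 in room air). FOSL1, an AP-1 subunit, measured 1.58, 2.09 and 2.52 CPM in HT3 and 11.3 and 26.2 CPM in HT5 (log2FC 3.18 ± 0.47 SE, adjusted p = 0.00099), and EGR3, NR4A3 (2.64), FOSB (2.52), EGR2 (1.98) and MYC (0.84) were the others. Of 15 genes known from transitional alveolar epithelium, a state between type 2 and type 1 cells seen after injury, 7 rose and none fell (median log2FC 0.75). They were CDKN1A, AREG (2.98), EREG (2.71), TNFRSF12A (2.48), LGALS3 (0.91), ITGB6 (0.89) and ITGAV (0.64). The keratins, CLDN4 and SFN, also on the list as written, were not among the 7, being untested or not called. CDKN1A is counted among the p53 targets too. AREG and EREG, growth factors of the EGF receptor, were named after their values were seen and were low, at 0.657, 0.737 and 3.29 CPM in HT3 and 6.08 and 18.6 CPM in HT5 for AREG. Without HT5_2, 2 immediate early genes (median log2FC of the list 0.62) and 3 of the transitional epithelium rose. Calls lost among these genes were EGR3, NR4A3, FOSB, MYC, AREG, EREG, ITGB6 and ITGAV without HT5_2 (adjusted p from 0.0521 to 0.689), ITGB6 and ITGAV without HT5_1 (adjusted p from 0.0857 to 0.12), NR4A3, FOSB, MYC, AREG, EREG, ITGB6 and ITGAV without HT3_1 (adjusted p from 0.0618 to 0.148), NR4A3, FOSB, MYC, AREG, EREG and ITGB6 without HT3_2 (adjusted p from 0.0611 to 0.146) and FOSB, MYC and EREG without HT3_3 (adjusted p from 0.0518 to 0.0865).

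Of 12 tested markers of alveolar type 1 cells, the thin cells of gas exchange, 6 fell and none rose (median log2FC -0.84), and their sum was 8902 to 11400 CPM in HT3 and 6901 and 4856 CPM in HT5. AGER, the receptor that marks these cells, shares its locus with PBX2 and measured 4976, 4424 and 3539.9 CPM in HT3 and 2299 and 1006 CPM in HT5 (log2FC -1.38 ± 0.32 SE, adjusted p = 0.00859). EMP2 (-1.65), RTKN2 (-1.57), AKAP5 (-1.50), HOPX (-0.89) and CAV1 (-0.78) were the other members that fell, RTKN2 being named after its values were seen. None of the 6 was called in the 5 libraries alone, and the call was lost for AGER, EMP2, RTKN2, AKAP5, HOPX and CAV1 without HT5_2 (adjusted p from 0.077 to 0.386), HOPX without HT5_1 (adjusted p = 0.0757), RTKN2, HOPX and CAV1 without HT3_1 (adjusted p from 0.0539 to 0.0838) and RTKN2, HOPX and CAV1 without HT3_2 (adjusted p from 0.0639 to 0.145). None of the 11 type 2 markers passed (median log2FC -0.28, with 0.25 in HT5_1 and -0.9 in HT5_2 against the HT3 mean), and all 11 were lower in HT5_2 than in HT5_1. Of 10 markers of ciliated cells 1 fell, TPPP3 (-0.90, at a locus shared with ZDHHC1), of 6 markers of club cells none passed, and of 12 genes of sodium, chloride and water transport 1 fell, the water channel AQP1 (log2FC -1.37). Both lost the call without HT5_2 (adjusted p = 0.16 for TPPP3 and 0.0785 for AQP1).

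Most of the markers of lung capillaries fell. Of 15 tested markers of lung capillaries, 12 fell and 1 rose, with a median log2FC of -1.97, against -0.20 in room air. Their sum was 2323 to 2848 CPM in the HT3 libraries and 1299 and 1049 CPM in the HT5 libraries. CD300LG (chromosome 19, 44263125 to 44276609) was the strongest, and SLC6A4, the serotonin transporter that capillaries use to clear serotonin, had 213, 256 and 191 CPM in HT3 and 36 and 20.4 CPM in HT5 (log2FC -2.97 ± 0.36 SE, adjusted p = 0.000334). KIT, the stem cell factor receptor found on general capillary cells and on mast cells, had 96.2, 113 and 65.9 CPM in HT3 and 17.3 and 8.49 CPM in HT5 (log2FC -2.83 ± 0.45 SE, adjusted p = 0.00144). TMEM100, a target of BMP signalling in endothelium, fell from 136, 219 and 109 CPM to 32.7 and 25 CPM (log2FC -2.43). For these genes every HT5 library was below every HT3 library. HPGD (-2.28), which breaks down prostaglandins, and EDNRB (-1.30), the type B endothelin receptor, fell as well, as did VIPR1 (-3.65), APLNR (-2.03), PRX (-1.95) and PLVAP (-1.40), which were named after their values were seen, and TBX2 and ACVRL1. CA4, a classical marker of aerocytes, the wide capillary cells of gas exchange, measured 86.1, 61 and 58.6 CPM in HT3 and 30.2 and 5.1 CPM in HT5 and did not pass (adjusted p = 0.0507). The 1 marker that rose was APLN, the ligand of APLNR. Across left-out libraries the number that fell ranged from 6, without HT5_2, to 12, and it was 7 in the 5 libraries alone. By gene, the call was lost for HPGD, EDNRB, VIPR1, APLNR, PLVAP, TBX2 and APLN without HT5_2 (adjusted p from 0.0549 to 0.298), VIPR1 without HT5_1 (adjusted p = 0.0568), EDNRB without HT3_1 (adjusted p = 0.0982) and EDNRB and VIPR1 without HT3_2 (adjusted p from 0.0591 to 0.0887).

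Of 17 tested markers shared by all endothelial cells, 10 fell and none rose (median log2FC -0.93, -0.19 in room air), and the range over left-out libraries was 6 to 9. ACE, the angiotensin-converting enzyme of the lung vessel surface (chromosome 19, 48352084 to 48370630), measured 1718, 2039 and 1417 CPM in HT3 and 611 and 173 CPM in HT5 (log2FC -2.14 ± 0.48 SE, adjusted p = 0.0075). CLEC14A had 207, 203 and 121 CPM in HT3 and 31.8 and 43.4 CPM in HT5 (log2FC -2.24 ± 0.31 SE, adjusted p = 0.000624), and CDH5, the cadherin of endothelial junctions, fell by 1.07 on the log2 scale. The groups were apart for ACE and CLEC14A, and without HT5_2 the log2FC of ACE was -1.50. CD36, a fatty acid receptor of capillaries and macrophages, and CD93, an endothelial receptor, were 2 DEGs outside the lists and were named after their values were seen, with log2FC -2.50 and -2.48. Of other cells of the wall, 5 of 9 smooth muscle markers fell (median log2FC -0.78), TAGLN most (log2FC -1.51, from 17, 10.8 and 12.7 CPM to 3.08 and 6.29 CPM), and 4 of 12 fibroblast markers fell and 1 rose, with NPNT (-1.83) and ITGA8 (-1.53), proteins of the mesenchymal matrix and its receptor, among those that fell. Of 10 pericyte markers 1 rose and 2 fell. The share called was 55.6% for smooth muscle, 41.7% for fibroblast and 30% for pericyte markers, against 22.1% of all tested loci. Without HT5_2, 2 smooth muscle markers and 1 fibroblast marker fell, and no fibroblast or pericyte marker rose. Over this group of genes, calls were lost for ACE, NPNT and ITGA8 without HT5_2 (adjusted p from 0.0965 to 0.249), TAGLN without HT5_1 (adjusted p = 0.0673), ITGA8 without HT3_1 (adjusted p = 0.0531) and ITGA8 without HT3_2 (adjusted p = 0.0545).

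Among angiogenic ligands and receptors, which let vessels grow and hold them in place, 2 of 20 tested members rose and 12 fell (median log2FC -0.89, -0.09 in room air). The angiopoietins moved in opposite directions. ANGPT1, which stabilises vessels through the receptor TEK (chromosome 3, 122698602 to 122944957), had 190.3, 156 and 153 CPM in HT3 and 41.9 and 39 CPM in HT5 (log2FC -2.04 ± 0.28 SE, adjusted p = 0.000549). ANGPT2, which competes with it (scaffold GL018713, 617878 to 676188), had 176, 243 and 216 CPM in HT3 and 555 and 932 CPM in HT5 (log2FC 1.81 ± 0.22 SE, adjusted p = 0.000356). The groups did not overlap, and both were called without any 1 library and in the 5 libraries alone (adjusted p = 0.0183 and 0.0296). TEK itself fell from 498, 400.4 and 481 CPM to 158 and 97.3 CPM (log2FC -1.85). The apelin pair split in the same manner, with APLN, named after its values were seen, from 34.8, 23.2 and 55 CPM to 138 and 217 CPM (log2FC 2.24) and its receptor APLNR from 78.5, 53.5 and 109 CPM to 27.2 and 12.4 CPM (log2FC -2.03). VEGFA, the main growth factor of endothelium, fell from 1413, 1292 and 1082 CPM to 621 and 318 CPM (log2FC -1.43), and VEGFC (-0.79) and the locus of VEGFD and PIR (-1.99) fell too. Among receptors, KDR fell with a log2FC of -1.32, FLT4 with -1.04 and NRP1 with -0.80, and FGF1 (-1.22), DLL4 (-1.58, named after its values were seen) and TIE1 (-0.98) completed the list. Without HT5_2, 1 member rose and 7 fell. These lost the call when the library named was left out: APLN, APLNR, VEGFC, KDR, FGF1 and DLL4 without HT5_2 (adjusted p from 0.0547 to 0.288), VEGFC without HT5_1 (adjusted p = 0.0825), VEGFC without HT3_1 (adjusted p = 0.0542), VEGFC without HT3_2 (adjusted p = 0.123) and VEGFC without HT3_3 (adjusted p = 0.0912).

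Genes of the matrix fell more often than they rose. Of 23 tested collagens 8 fell and 1 rose (39.1% called). Of 15 genes of elastic fibres 9 fell and none rose (60% called, against 22.1% of all tested loci). The median log2FC was -0.92 for elastic fibre genes and -0.49 for both together (-0.18 in room air). LOX, which cross-links collagen and elastin, had 392, 486 and 353 CPM in HT3 and 172 and 144 CPM in HT5 (log2FC -1.38 ± 0.21 SE, adjusted p = 0.00117). ELN, which encodes elastin, had 4067, 4226 and 3601 CPM in HT3 and 2242 and 1827 CPM in HT5 (log2FC -0.96 ± 0.19 SE, adjusted p = 0.00343). Every HT5 library was below HT3 for both. MFAP4 (-1.28), FBN2 (-0.98), FBLN5 (-0.92) and, named after their values were seen, FBLN2 (-1.48) and LTBP4 (-1.07) are other proteins of elastic fibres that fell. Among collagens, COL23A1 (-1.96), COL15A1 (-1.44, named after its values were seen) and the basement membrane chains COL4A3 (-1.35) and COL4A4 (-1.13) fell, while COL12A1, a collagen of fibril surfaces, rose from 212, 260.2 and 239 CPM to 516 and 736 CPM (log2FC 1.40). Of 18 tested matrix proteases and inhibitors, 6 fell and none rose, MMP11 most (log2FC -2.03, from 45.3, 54.6 and 57.1 CPM to 16.5 and 9.14 CPM), but without HT5_2 none of them fell and in the 5 libraries alone 1 did. The median of collagens and elastic fibre genes was -0.35 without HT5_2 and -0.96 without HT5_1. The number of these genes that fell was 2 without HT5_2 and 6 in the 5 libraries alone, and of the named ones these lost the call: ELN, FBN2, FBLN5, FBLN2, LTBP4, COL23A1, COL15A1, COL4A3, COL4A4 and MMP11 without HT5_2 (adjusted p from 0.0681 to 0.389), COL4A4 without HT3_1 (adjusted p = 0.0894) and FBN2, FBLN2, LTBP4 and COL4A4 without HT3_2 (adjusted p from 0.0772 to 0.105).

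Developmental signalling was lower in part. Of 54 tested genes, 16 fell and 1 rose (31.5% called, against 22.1% of all tested loci), with a median log2FC of -0.49, -0.10 in room air. In the hedgehog pathway, through which epithelium instructs mesenchyme, 3 of 8 fell, among them the receptor PTCH1 (-1.02) and the effector GLI1 (-0.99). Of 18 genes of BMP signalling 5 fell (27.8%), including the receptors BMPR2 (-1.03) and ACVRL1 (-0.69). Of 18 WNT genes 6 fell, including the receptor FZD4, which went from 258, 448 and 201 CPM to 114 and 96.5 CPM (log2FC -1.52), and the ligands WNT2B (-1.15) and WNT5A (-0.74). Of 10 FGF genes, the receptors FGFR1 (-1.05) and FGFR4 (-1.03) fell, and FGF7, the keratinocyte growth factor that acts on epithelium, rose, with 9.26, 9.82 and 8.39 CPM in HT3 and 28.1 and 33.8 CPM in HT5 (log2FC 1.76 ± 0.33 SE, adjusted p = 0.00301). Of 15 transcription factors of lung development, 10 fell and none rose (median log2FC -0.84). GLIS1 had the largest fall (-3.07), and FOXF1 (-0.80), TBX4 (-0.89), TBX5 (-0.91) and TCF21 (-0.84), which act in lung mesenchyme, were among the others, TBX4 and TBX5 being named after their values were seen. In the 5 libraries alone, 1 of the 54 signalling genes and 3 of the 15 factors fell. The median of the signalling genes was -0.36 without HT5_2 and -0.77 without HT5_1, and that of the factors -0.59 and -1.13. Of the genes named here, the call was lost for PTCH1, GLI1, BMPR2, FZD4, WNT2B, WNT5A, FGFR4, GLIS1, FOXF1, TBX4, TBX5 and TCF21 without HT5_2 (adjusted p from 0.0562 to 0.392), PTCH1 and GLI1 without HT5_1 (adjusted p from 0.0574 to 0.0725), FGFR4, TBX5 and TCF21 without HT3_1 (adjusted p from 0.0708 to 0.108), PTCH1, BMPR2, WNT2B and TCF21 without HT3_2 (adjusted p from 0.0557 to 0.0717) and FGFR4, TBX5 and TCF21 without HT3_3 (adjusted p from 0.0505 to 0.0643).

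Of 14 tested genes of the glucocorticoid response, which covers targets of the hormone, its receptor and enzymes that handle it, 8 fell and none rose (median log2FC -0.83, -0.11 in room air). ZBTB16 measured 239, 415 and 133 CPM in HT3 and 23.9 and 30.4 CPM in HT5 (log2FC -3.27 ± 0.57 SE, adjusted p = 0.0021), and FKBP5, a co-chaperone of the glucocorticoid receptor, measured 146, 342 and 64.6 CPM in HT3 and 25.1 and 30.7 CPM in HT5 (log2FC -2.72 ± 0.61 SE, adjusted p = 0.00706). HT3 was wide for both, with HT3_2 the highest and HT3_3 the lowest, but its lowest library still lay above HT5. TSC22D3 (-1.50), KLF15 (-1.45), KLF9 (-1.40), HSD11B1 (-1.18), which regenerates active hormone, HSD11B2 (-1.10), which inactivates it, and the receptor NR3C1 (-0.50) also fell, KLF9, KLF15 and NR3C1 being named after their values were seen. The number that fell was 1 without HT5_2 and 1 in the 5 libraries alone, with calls lost for FKBP5, TSC22D3, KLF15, KLF9, HSD11B1, HSD11B2 and NR3C1 without HT5_2 (adjusted p from 0.0583 to 0.384), NR3C1 without HT5_1 (adjusted p = 0.0658), HSD11B2 and NR3C1 without HT3_1 (adjusted p from 0.0659 to 0.0823) and HSD11B2 and NR3C1 without HT3_2 (adjusted p from 0.0545 to 0.1253).

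Inflammatory genes were called about as often as all loci. Of 54 tested, 7 rose and 6 fell (24.1% called, against 22.1% of all tested loci), with a median log2FC of 0.65, 0.07 in room air, and 38 of the 54 were higher in HT5_1 than in HT5_2. The median was 0.04 without HT5_1, and the rises and falls were 2 and 1 without HT5_2 and 11 and 7 without HT3_3. LIF, a cytokine of the interleukin 6 family, had 3.81, 2.21 and 6.97 CPM in HT3 and 23.7 and 82.5 CPM in HT5 (log2FC 3.62 ± 0.74 SE, adjusted p = 0.00454), while its receptor LIFR fell from 427, 702 and 329.5 CPM to 119 and 107 CPM (log2FC -2.10). The groups were apart for both. PTGS2, the inducible cyclooxygenase, measured 12.5, 16.2 and 34.8 CPM in HT3 and 59.8 and 214 CPM in HT5 (log2FC 2.69 ± 0.69 SE, adjusted p = 0.0138), and HPGD, which degrades the prostaglandins it makes, was lower as given above. Of 14 chemokines only CCL7 passed, with 40.7, 11.4 and 33.2 CPM in HT3 and 96.1 and 142 CPM in HT5 (log2FC 2.07 ± 0.53 SE, adjusted p = 0.0134), and CCL2, next to it on chromosome 19, measured 18.7, 9.21 and 137 CPM in HT3 and 128 and 419 CPM in HT5 and did not (adjusted p = 0.135), its HT3_3 library reaching the level of HT5_1. Without HT3_3, CCL2 was called (log2FC 4.30, adjusted p = 0.0185) and 3 chemokines rose. IL33, an alarmin of barrier cells, rose from 165, 251 and 259 CPM to 535 and 517 CPM (log2FC 1.23), and TNFRSF12A (2.48), TNFRSF1A (0.70) and IL1RAP (0.86) were the other rises. IL6 did not pass (log2FC 1.08, adjusted p = 0.536) at 0.197, 0.921 and 3.74 CPM in HT3 and 4.58 and 2.31 CPM in HT5. Of 16 genes of NF-kB feedback 4 rose, BIRC3 most (from 34.3, 53.7 and 82.1 CPM to 178 and 606 CPM), whereas 1 of 22 interferon-stimulated genes fell and none rose, 21 of the 22 being higher in HT5_1 than in HT5_2. The number of NF-kB feedback genes that rose was 1 without HT5_2, 2 without HT5_1 and 9 without HT3_3. Of the genes named here, the call was lost for LIF, PTGS2, HPGD, CCL7, TNFRSF1A, IL1RAP and BIRC3 without HT5_2 (adjusted p from 0.105 to 0.277), PTGS2 and IL1RAP without HT3_1 (adjusted p from 0.0522 to 0.0732) and PTGS2 and IL1RAP without HT3_2 (adjusted p from 0.0543 to 0.0622).

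Of 14 macrophage and monocyte markers 2 rose (14.3%, against 10.4% of all tested loci), CD163 (from 3.15, 7.55 and 10.8 CPM to 36.9 and 13.3 CPM, log2FC 1.80) and the locus of CD68, EIF4A1 and MPDU1. The sum over the list was 1392 to 2100 CPM in HT3 and 3043 and 2378 CPM in HT5. It includes the CD68 locus, whose reads cannot be assigned to CD68 alone. The median log2FC of these markers was 0.62 in hyperoxia and 0.58 over the same days in room air. Single libraries stood apart in both, since 13 of the 14 were higher in HT5_1 than in HT5_2, the hyperoxia median was 0.28 without HT5_1, and the room air sums were 2580 CPM in NT5_1, 1210 and 1160 CPM in NT5_2 and NT5_3 and 1259 to 1398 CPM in NT3. None of 12 neutrophil markers passed, with sums of 1419 to 2150 CPM in HT3 and 1284 and 855.8 CPM in HT5. Of 10 lymphocyte markers CD8B rose, of 4 mast cell markers KIT fell, which made up most of the summed level of that list (72.7 to 126.1 CPM in HT3, 29.51 and 12.82 CPM in HT5), and of 7 erythroid markers ALAS2 fell (log2FC -1.35). None of the macrophage markers was called without HT5_2, HT3_1 or HT3_2, CD163 lost the call without HT5_1 as well (adjusted p = 0.34), and 5 markers rose without HT3_3, while ALAS2 lost the call without HT5_2 (adjusted p = 0.16). The part of these cells in the values above was not tested. None of the markers of skeletal muscle, heart muscle and mesothelium, 9, 9 and 6 in number, passed.

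Proliferation genes rose on day 5 about as often as all loci (10.4%). Of 22 tested genes of mitosis 3 rose (13.6%), CCNB1 (1.53), HMMR (1.56) and AURKB (1.37), with a median log2FC of 1.12, and in room air the median over the same days was 1.68. All 22 were higher in HT5_1 than in HT5_2. Of 22 genes of DNA replication 3 rose (13.6%), TYMS (from 21.9, 11.4 and 14.46 CPM to 39.4 and 54.1 CPM), RRM2 (from 9.13, 6.87 and 7.17 CPM to 35.5 and 10.03 CPM) and PCNA (from 82.9, 56.7 and 79.5 CPM to 137 and 141 CPM), with a median of 0.57 against 0.71 in room air. Both medians in hyperoxia rested on HT5_1, being 0.27 for mitosis and 0.04 for replication without it. No more than 1 of the mitosis genes was called with any 1 library left out, and of the replication genes the call was lost for TYMS and PCNA without HT5_2 (adjusted p from 0.0728 to 0.0766), RRM2 without HT5_1 (adjusted p = 0.636), RRM2 without HT3_1 (adjusted p = 0.0575), RRM2 without HT3_2 (adjusted p = 0.0983) and RRM2 without HT3_3 (adjusted p = 0.0757). In coagulation and plasminogen activation, THBS1, a matricellular protein that also restrains vessel growth (chromosome 17, 32568969 to 32583143), had 366, 388 and 794 CPM in HT3 and 1478 and 3285 CPM in HT5 (log2FC 2.21 ± 0.35 SE, adjusted p = 0.0014). F3, the tissue factor that starts clotting, rose (log2FC 1.64), and PROS1, an anticoagulant cofactor, fell (-1.83). Without HT5_2, F3 lost the call (adjusted p = 0.0561) and 1 of the 3 rises in this list was left. Within HT3, THBS1 was highest in HT3_3, which still lay below both HT5 libraries.

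The same days in room air gave no called locus. For NT5 against NT3, which share no library with HT3 and HT5, edgeR called 0 loci (708 at an unadjusted p under 0.05, with 631.4 expected by the number tested), DESeq2 called 74, and a fit of those 6 libraries alone called 106. Of the 45 upregulated DEGs 30 had a positive log2FC in room air (median 0.10) and of the 65 downregulated 59 a negative one (median -0.33). The difference between the steps, hyperoxia minus room air, was tested as an interaction and was called at 161 loci (1.27% of those tested, 64 higher, 0.507%, and 97 lower, 0.768%), of which 19 were upregulated and 20 downregulated DEGs. CDKN1A measured 18.2, 25.1 and 25.5 CPM in NT3 and 37.8, 25.6 and 24 CPM in NT5 (log2FC 0.34), and its interaction was 2.84 (adjusted p = 0.018). EDA2R measured 4.35, 5.52 and 6.48 CPM in NT3 and 5.19, 6.0 and 6.4 CPM in NT5, with an interaction of 2.93 (adjusted p = 0.0116). Room air libraries of both days lay below HT3 for these genes. CD300LG measured 109, 79.1 and 94.7 CPM in NT3 and 45.6, 78 and 80.0 CPM in NT5 (interaction -3.79, adjusted p = 0.0127), and ANGPT2 (interaction 1.84) and ANGPT1 (-2.0) differed as well. The number of called interactions depended on single libraries, with 2 loci called without HT5_2, 3 without HT3_1, 47 without HT3_2, 327 without HT3_3 and 1306 without HT5_1, and leaving out 1 room air library gave 18 to 229. Without HT5_2 both called loci were higher, so that CD300LG (adjusted p = 0.132) and ANGPT1 (0.19) lost the call, as did CDKN1A (0.156) and ANGPT2 (0.147), whereas EDA2R was called without any 1 of the HT3, HT5, NT3 and NT5 libraries. CDKN1A, ANGPT1 and ANGPT2 also lost it without HT3_1 and without NT5_3, CDKN1A and ANGPT1 without NT3_2 and NT5_2, and ANGPT1 without NT3_1 (adjusted p from 0.0501 to 0.0642). By list, the interaction was called for 8 p53 targets, 4 genes of ribosome biogenesis, 5 capillary and 4 pan-endothelial markers and 6 angiogenic genes, 1 of them upward.

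Between HT5 and HT7, libraries that share the HT5 group with the comparison above, 185 loci were called (1.46%), of which 37 rose (0.293%) and 148 fell (1.17%), and none was a DEG. Upregulated DEGs of day 5 had a median log2FC of -0.08 over the next 2 days and downregulated DEGs 0.18. The count of called loci was 11 without HT5_1, 315 without HT5_2, 1 without HT7_1, 1213 without HT7_2 and 2 without HT7_3. Of the 110 DEGs, 2 were called, both in the other direction. ZBTB16 measured 217, 105 and 224 CPM in HT7 (log2FC 2.74, adjusted p = 0.0297), and FKBP5 301, 103 and 203 CPM (2.86, adjusted p = 0.0357). The HT7 libraries of both genes lay above both HT5 libraries and within or near the range of HT3. Both calls were lost without HT5_1, HT5_2, HT7_1 or HT7_3 (adjusted p from 0.065 to 0.192) and in the HT5 and HT7 libraries alone (adjusted p = 0.4 for ZBTB16 and 0.52 for FKBP5). CDKN1A measured 1106, 1165 and 2038 CPM in HT7 (log2FC 0.24 against HT5) and CD300LG 1.32, 4.46 and 2.46 CPM (-1.12), neither of them called. APLN measured 48, 40.9 and 30.8 CPM in HT7 (log2FC -2.15, adjusted p = 0.051) and did not pass.

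**Figure D5:**
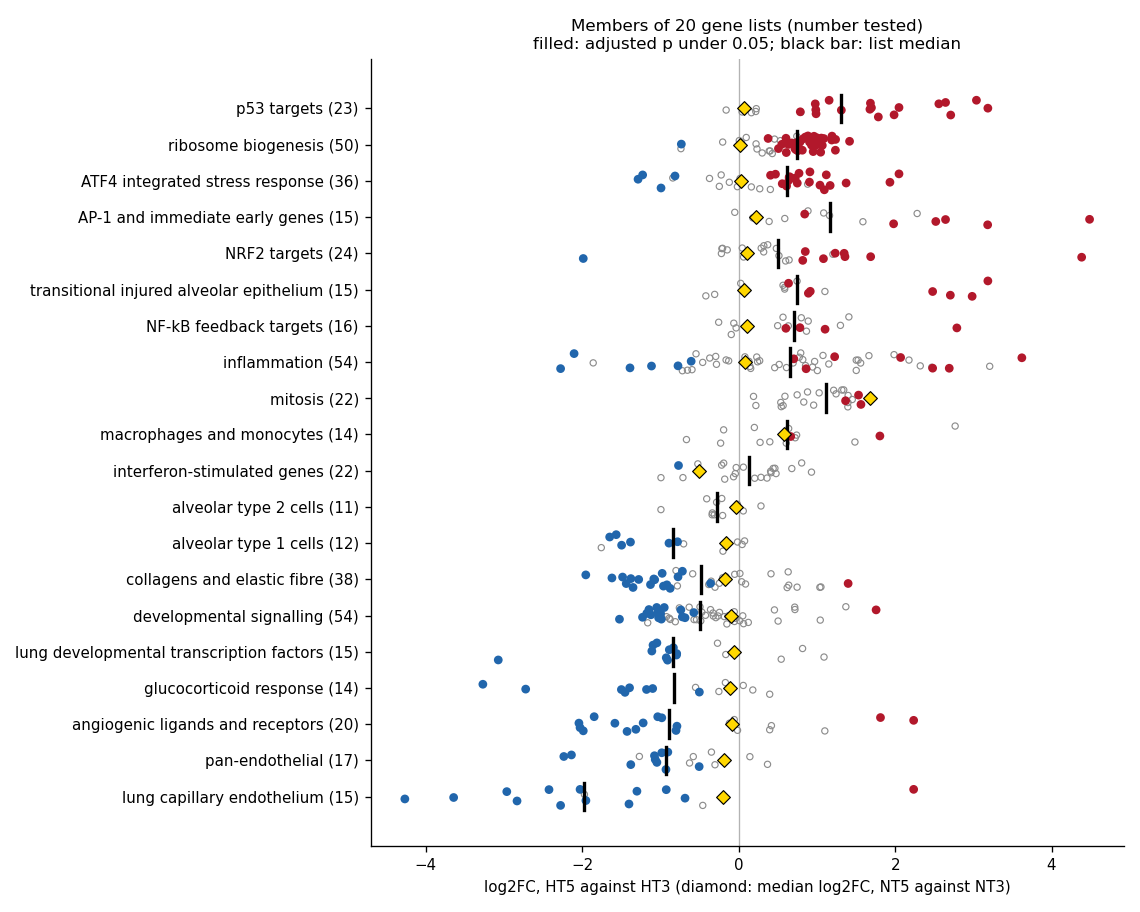
Log2FC of HT5 against HT3 for the tested members of 20 gene lists, 1 point per locus, with called loci filled, a black bar at each list's median and a yellow diamond at its median for NT5 against NT3. The medians run from -1.97 for markers of lung capillary endothelium to 1.31 for p53 targets.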

How the data were processed

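RNA of 17 lung homogenates was sequenced, and the authors deposited 1 table of raw counts per locus, without normalization. The submitters' notes name FastQC, STAR 2.7.10a and the build OryCun2.0, and the counting program is not given in the sources used here. The table had 13827 lines for 13313 loci, and genes of 1 locus (434 loci hold several) share the same counts, so each locus was used once. Low loci were removed with filterByExpr, leaving 12628. Counts were fitted with edgeR 4.0.16 (R 4.3.3, TMM factors, quasi-likelihood test, 6 group means over all 17 samples, prior count 0.125), with Benjamini-Hochberg adjustment. DEGs had an adjusted p under 0.01 and a log2FC beyond 2, and calls an adjusted p under 0.05. A group at or under 3 counts in every library was treated as at the floor. The comparisons were HT5 against HT3, NT5 against NT3, their difference, and HT7 against HT5. DESeq2 1.42.0, other normalizations, filters and prior counts, a replicate block, smaller fits and leaving out each library were alternatives, and the fits were tested on simulated data.

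The members and the 43 gene lists (947 entries, 791 matched by name to 1 locus, 25 to several, 131 unmatched, 782 tested) were chosen with earlier results of these data known. Named were the 12 largest rises and falls among DEGs with at least 1 log2 CPM on average and no overlap, the genes the study singled out, per list the 4 members with the smallest p and the first 3 written, and the 6 largest interactions of each sign. Further genes, among them MYC, VEGFC, CAV1, ITGB6, HSD11B2, NARS1, COL4A4, GPX1 and those so described in the text, were named after their values were seen, and a few genes are not reported here. Replicates differed by more than sampling noise, so none was merged. Sequences were not used here, since no genome of this build was given. Python 3.11 served for summaries (pandas 2.3.3) and plots (matplotlib 3.10.9).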

Additional observations from a re-analysis of the deposited data

Results flagged for a closer look

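The step from day 3 to day 5 differed between hyperoxia and room air, by the interaction term of edgeR's model, at 161 loci. Among the 375 loci named in the report or by its rules, 46 were called for this difference, against 1.27% of all tested loci, and all 46 were called between HT5 and HT3 as well. Since these rules took loci by their values in both comparisons, nothing is read from this count or overlap. Differences of both signs depended on single libraries, and without HT3_1 the interaction was called at 3 of all tested loci. Leaving out HT5_2, the difference was 2.13 for CDKN1A, 1.08 for MDM2, 3.65 for CD8B, -3.37 for CD300LG and -1.95 for ANGPT1. Values here are log2 differences, the hyperoxia step minus the room air step, over 3 HT3, 2 HT5, 3 NT3 and 3 NT5 libraries. Lower in hyperoxia, with their differences, were GLIS1 (-4.05), CD300LG (-3.79), HIF3A (-2.87), HSPB2-C11orf52 (-2.82), CCDC3 (-2.64), KIT (-2.63), SLC6A4 (-2.60), PRELP (-2.46), CD93 (-2.21), TMEM100 (-2.10), APLNR (-2.01) and ANGPT1 (-2.0). Smaller negative differences were measured for PROS1 (-1.84), LIFR (-1.76), VEGFD/PIR (-1.73), CLEC14A (-1.72), TEK (-1.57), MFAP4 (-1.20), COX4I2 (-1.0), RAMP2 (-0.97), FLT4 (-0.94), CDH5 (-0.93) and FGFR1 (-0.89). Higher in hyperoxia were COCH (4.83), IL1RL2 (4.20), RNASE8 (3.90), CD8B (3.59), IGSF9B (3.38), EDA2R (2.93), FOSL1 (2.91), CDKN1A (2.84), CHRD (2.75), TIGAR (2.69) and TNFRSF12A (2.65). Smaller positive differences, p53 targets among them, were measured for PHLDA3 (2.47), THBS1 (2.13), MDM2 (1.97), ZMAT3 (1.85), ANGPT2 (1.84), ISG20/AEN (1.78), RRP12 (1.48), DDB2 (1.20), UTP20 (1.13), BAX (1.13), POLR1A (0.96) and IARS1 (0.82). COX4I2 is a pericyte marker, RAMP2 a receptor partner in endothelium, and UTP20 and IARS1 act in ribosome assembly and tRNA loading. PRELP, a matrix proteoglycan, CD93, APLNR, AEN, ZMAT3, TIGAR and CHRD were named after their values were seen.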

How the results depend on the processing

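Between HT5 and HT3, no named locus called in the full model changed sign in any alternative, whereas some that were not called did, such as NQO1 (log2FC 1.20, -0.17 without HT5_2). The 110 DEGs were 154 with DESeq2 (104 of the 110 shared), 113 with RLE and 103 with upper quartile factors. They were 107 with no count filter, 110 with at least 10 counts in 5 libraries, 112 with 1 entry per listed gene and 104 at a prior count of 2. With no fold minimum 1073 loci passed, and the HT3 and HT5 libraries alone gave 0 DEGs and 444 called loci. Leaving out 1 library gave 8 to 216 DEGs and 342 to 3058 called loci, the fewest without HT5_2. For the interaction these ranges were 0 to 57 and 2 to 1306, for HT7 against HT5 0 to 47 and 1 to 1213, and for NT5 against NT3 0 and 0. DESeq2 gave 5 DEGs and 74 called loci for NT5 against NT3, 52 and 823 for the interaction and 27 and 681 for HT7 against HT5. Fits of only the groups compared gave 7 and 106 for NT5 against NT3 and 0 called loci for HT7 against HT5. HT7 against HT5 had 118 called loci with upper quartile factors and 1 DEG with no fold minimum. The cause of these differences was not tested. Of 228 named loci called, 227 were still called with RLE, 222 with upper quartile factors, 99 in the 5 libraries alone and 70 without HT5_2. Samples with the same number did not deviate together (correlation of deviations between HT3 and HT5 -0.206 and -0.127), and pups taken on different days are different animals. With the replicate number as a block, 118 DEGs and 2941 called loci were found for HT5 against HT3 and 1 DEG for the interaction, and the block kept 217 of the 228 named calls. With 2 HT5 libraries, the spread within HT5 rests on 1 difference, and counts of few reads limit the low genes.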

Other observations

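Between day 3 and day 5 of hyperoxia, none of 21 tested genes of cholesterol and fatty acid synthesis passed (median log2FC 0.10). Of 27 proteasome subunits 3 rose (11.1%, against 10.4% of all tested loci), PSMD14 (log2FC 0.94), PSMA1 (0.57) and PSMC6 (0.43), with a median of 0.23, and the call was lost for PSMD14, PSMA1 and PSMC6 without HT5_2 (adjusted p from 0.077 to 0.336), PSMC6 without HT3_2 (adjusted p = 0.0919) and PSMC6 without HT3_3 (adjusted p = 0.0562). Of 15 genes of glycolysis 4 rose and 1 fell (median log2FC 0.38, 0.06 without HT5_1). The rises were PFKP (1.15), SLC16A1 (1.05), which exports lactate, HK2 (0.93) and TPI1 (0.90), and the call was lost for PFKP, SLC16A1, HK2 and TPI1 without HT5_2 (adjusted p from 0.0578 to 0.379), HK2 without HT5_1 (adjusted p = 0.231), HK2 without HT3_1 (adjusted p = 0.113), PFKP and HK2 without HT3_2 (adjusted p from 0.109 to 0.115) and PFKP without HT3_3 (adjusted p = 0.0629).

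Of 11 genes of iron and haem handling, 3 rose and 2 fell (45.5% called, against 22.1% of all tested loci). FTL, the light chain of the iron store ferritin, measured 1756, 1501 and 1856 CPM in HT3 and 3273 and 5406 CPM in HT5 (log2FC 1.35 ± 0.37 SE, adjusted p = 0.0193). TFRC, which imports iron, rose (log2FC 0.84), and NCOA4, which leads ferritin to breakdown, fell (-0.69). In this list, the call was lost for FTL, TFRC and NCOA4 without HT5_2 (adjusted p from 0.14 to 0.244), TFRC without HT3_1 (adjusted p = 0.0636) and FTL, TFRC and NCOA4 without HT3_2 (adjusted p from 0.0654 to 0.0773). Of 17 clock genes BHLHE40 rose (1.09) and 3 fell, among them HLF (-0.66), a share of 23.5% against 22.1% of all tested loci, none of the 17 was called without HT5_2 or in the 5 libraries alone, and the labels do not give the hour of sampling. The call was also lost for BHLHE40 without HT5_1, HT3_1 or HT3_2 (adjusted p from 0.0637 to 0.148) and for HLF without HT5_1 or HT3_1 (adjusted p = 0.149 and 0.0892).

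CYP1A1, an enzyme of xenobiotic and fatty acid oxidation named after its values were seen, had 1417, 871 and 976 CPM in HT3 and 205 and 106 CPM in HT5 (log2FC -2.81 ± 0.62 SE, adjusted p = 0.00675), with the groups apart, and lost the call without HT5_2 (adjusted p = 0.11). CCDC3, a secreted protein, had 438, 315 and 180.1 CPM in HT3 and 70.7 and 30.2 CPM in HT5 (log2FC -2.63), and it too lost the call without HT5_2 (adjusted p = 0.0601). Of the genes the study singled out, IL1R2 (log2FC -0.46, adjusted p = 0.61) and RPP25 (0.74, adjusted p = 0.393), the latter under 1 CPM in these libraries, did not pass.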
